A study of Homo sapiens with 5 samples.

Results

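Of the 67528 transcript clusters measured on the array, 42204 carried no gene symbol in the probe-to-gene table, and these unnamed clusters are described here. They were found as the clusters whose ID begins with TC and for which that table gives no symbol. Another 23781 clusters carried 1 gene symbol and 1543 carried several. A transcript cluster is a set of probes placed along a stretch of genome that is transcribed, or was predicted to be, and its value summarises the signal of those probes. A cluster without a symbol is unnamed in this table and is not thereby shown to lie outside every gene. None of the values used here entered the choice of the members.

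Much of the human genome is transcribed into RNA that encodes no protein, including long noncoding RNAs, antisense transcripts, small structural RNAs and copies of repeated elements. Many of these RNAs are made at low levels and in few cell types, and clones of a cancer cell line can differ in which of them they express. Whole-transcriptome arrays carry probes for such regions beside the probes for known genes, so that their signal can be read without a gene model.

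The study asked which transcripts change when DDB2 is overexpressed in ovarian cancer cells that resist cisplatin. DDB2 is a DNA damage recognition protein of nucleotide excision repair that also acts in transcriptional regulation. The samples were 3 DDB2 clones, which are CP70 cells stably transfected with the expression plasmid pcDNA3.1-His-DDB2, and 2 vector clones of the same cells, which carry the empty plasmid. CP70 is a cisplatin-resistant derivative of the ovarian cancer cell line A2780, and all clones were grown without further treatment in the labels. Each clone was measured on 1 array, so the spread between arrays joins differences between clones with the error of the assay, and every P below measures that spread alone. The titles number the DDB2 clones 1, 2 and 3 and the vector clones 1 and 3, and the source name of the vector clone with title number 3 gives it as clone 2. The labels do not say which array is the clone the study names 1B, 3H or 4H. With 3 arrays against 2, an exact two-sided permutation test of a single value cannot give a p under 0.1.

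DDB2 itself had a log2 signal of 9.87, 9.00 and 9.14 in the DDB2 clones, against 7.84 and 7.25 in the vector clones, and was thus higher in every clone labelled DDB2. Among markers of epithelial ovarian carcinoma, 7 of 8 passed the filter on low signal described below, with WT1 under it, and all 3 mesenchymal markers passed. None of the 3 leukocyte markers with a cluster passed. Of the endothelial and fibroblast markers, 2 of 3 and 2 of 4 passed. DCN and LUM, which did not pass, stood at 6.02 and 4.73 in DDB2 clone 1 and at 4.01 and 3.59 in vector clone 1, and under 3 on the other arrays.

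The unnamed clusters were dimmer than the named ones on every array. The median log2 signal of the unnamed clusters, averaged over the arrays, was 3.86, against 5.47 for clusters with 1 symbol. The difference of the medians was -1.60, -1.61 and -1.60 in the DDB2 clones and -1.63 and -1.60 in the vector clones. Signals of different probes are not on a shared scale of abundance, so these values describe brightness on the array and not numbers of molecules. The filter kept a cluster when its signal was over 4.48, the median of all values of the table, on at least 2 of the 5 arrays. It kept 16739 unnamed clusters (39.7%), against 16250 clusters with 1 symbol (68.3%). Of the unnamed clusters, 24344 (57.7%) were under the level on every array, against 7080 (29.8%) of those with 1 symbol. The 25465 unnamed clusters that were not kept entered no test.

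**Figure D1:**
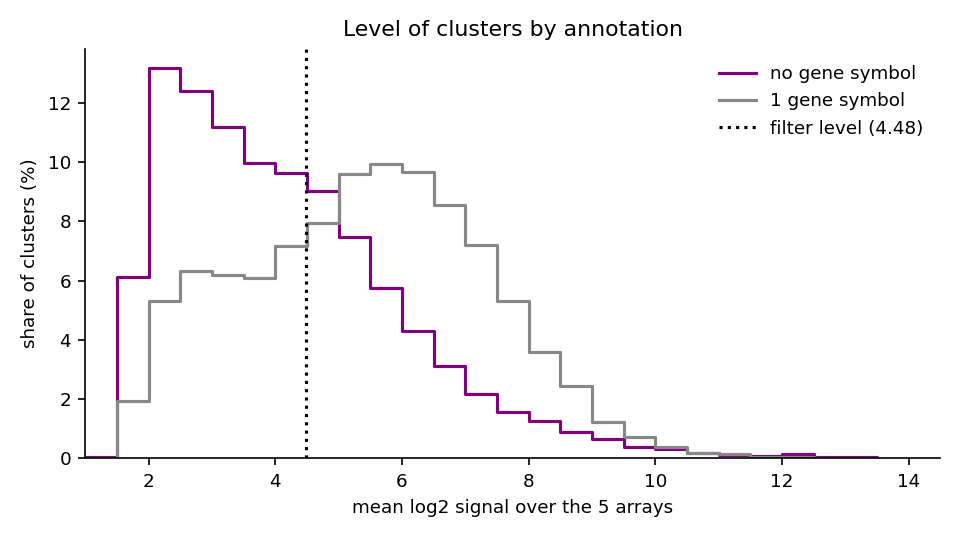
Distribution of the mean log2 signal over the 5 arrays (horizontal axis) for clusters with no gene symbol and with 1 gene symbol, as the share of each class per bin (vertical axis, %). The dotted line marks the filter level of 4.48, and the unnamed clusters, with a median of 3.86, lie mostly below it.

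At the brightest end the unnamed clusters were close to those with 1 symbol, and clusters with several symbols stood above both. A mean signal over 10 was seen in 396 unnamed clusters (0.938%), against 195 clusters with 1 symbol (0.82%) and 50 with several (3.24%). The 396 include mitochondrial clusters, none of which is named, and rows of identical values. The 99th percentile of the mean signal was 9.90 for the unnamed clusters, 9.84 for clusters with 1 symbol and 11.99 for those with several.

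The brightest unnamed cluster was TC01002863 on chromosome 1, which lay between HFM1, a gene of meiotic recombination, and TGFBR3, a co-receptor for TGF-β ligands, in the order of the cluster IDs. Its log2 signal was 13.92, 14.08 and 14.08 in the DDB2 clones, against 13.93 and 13.87 in the vector clones. TC14001108 on chromosome 14 followed at 13.86, 13.97 and 13.89 in the DDB2 clones, against 13.84 and 13.81 in the vector clones. Both sat near the top of the scale on all arrays, and whether differences are compressed there was not tested. TC02002617, between ORMDL1, a regulator of sphingolipid synthesis, and MSTN, which encodes the growth inhibitor myostatin, had means of 13.58 in the DDB2 clones and 13.59 in the vector clones. TC08001305 on chromosome 8 had means of 13.59 in the DDB2 clones and 13.56 in the vector clones. TC0M000004, from the mitochondrial genome, had means of 13.69 in the DDB2 clones and 13.67 in the vector clones.

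The other 5 of the 10 brightest unnamed clusters were not separate measurements. TC02000740, TC04000491, TC04001102, TC07001932 and TC09000152 lay on chromosomes 2, 4, 7 and 9 and had the same values on every array, 13.82, 13.90 and 13.86 in the DDB2 clones against 13.81 and 13.81 in the vector clones. Identical values on all arrays were common among the unnamed clusters. They were found for 1469 of them (3.48%), in 407 sets, and 157 of these sets spanned 2 or more chromosomes or contigs. The largest set held 35 unnamed clusters with signals of 8.95, 8.37 and 8.32 in the DDB2 clones, against 8.70 and 8.12 in the vector clones. In 25 sets a cluster with a symbol was included, and 58 unnamed clusters had the values of such a named cluster. Chromosome 15, with 279 of its 1950 unnamed clusters in such sets, carried many of them. In all, the 42204 members gave 41142 different profiles of values, so that counts of clusters count some measurements more than once.

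The share of clusters without a symbol differed between chromosomes. Among the chromosomes of the nucleus it was lowest on chromosome 19, at 41.8%, and highest on chromosomes 5 and 21, at 70.9% each. The share of unnamed clusters that passed the filter went from 27.4% on chromosome 13 to 61.8% on chromosome 19. Chromosome 19 was thus the one with the smallest share of unnamed clusters and the largest share of them above the level. Chromosomes 22 (57.4%), 16 (57.2%) and 17 (54.2%) came next in the share kept.

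**Figure D2:**
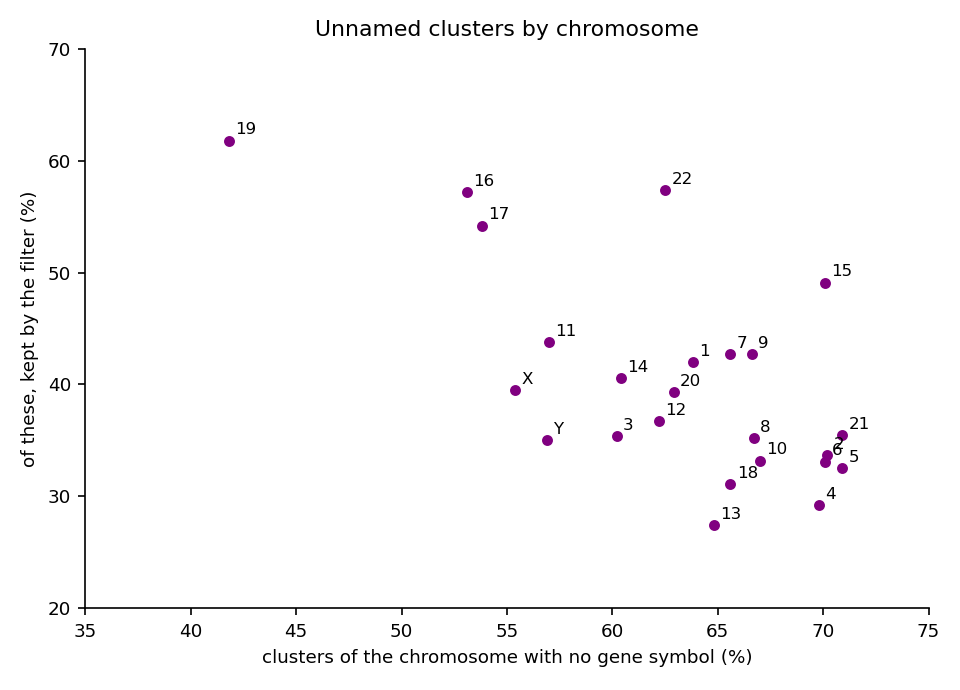
For each chromosome (points, with their names), the share of clusters with no gene symbol (horizontal axis, %) and the share of these kept by the filter (vertical axis, %). Chromosome 19 stands apart at 41.8% unnamed and 61.8% kept, and chromosome 13 is lowest in the share kept, at 27.4%.

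The numbers in the cluster IDs held information on place. Within each nuclear chromosome, the named clusters formed a first and a second run of IDs in gene order, with mostly plus-strand genes in the first and minus-strand genes in the second. On chromosome 8 no strand was known. In the first run 99.2% of consecutive named genes stood in the order of the RefSeq annotation, and 99.6% of those with a known strand were on the plus strand. In the second run 99.4% were in order and 99.8% were on the minus strand. The runs held 9350 and 9483 unnamed clusters, for which the nearest named gene on each side could be given. A further 22723 unnamed clusters followed in a stretch of IDs that held no named cluster at all, and these could not be placed beside a gene. The filter kept 40% and 40.7% of the unnamed clusters in the runs and 38.5% of those in the stretch without names. The remaining members lay between or after these stretches, on other contigs or on the mitochondrial genome.

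DDB2 clones were compared with vector clones by limma over all 34141 clusters kept, and a cluster was called when its fold change was over 2 and its unadjusted P under 0.05, the thresholds of the study. Of the unnamed clusters tested, 28 (0.167%) were called higher in DDB2 clones, beside 0.164% of all clusters tested. A further 33 (0.197%) were called lower, beside 0.187% of all clusters tested. Clusters with 1 symbol gave 27 higher and 30 lower of 16250. The share of unnamed clusters called was thus close to the background in both directions. An unadjusted P under 0.05 was found for 593 unnamed clusters (3.54%) by limma, beside 3.21% of all clusters tested. After Benjamini-Hochberg adjustment over all clusters tested, no unnamed cluster had an adjusted p under 0.05, and the share over all clusters was 0%. The smallest adjusted p of limma was 0.703, for TC06001448.

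All 3 DDB2 clones lay above both vector clones for 1125 unnamed clusters (6.72%), beside 6.29% of all clusters tested. They lay below both for 1877 (11.2%), beside 11.8% of all clusters tested. The median log2 fold change of the unnamed clusters was -0.007, against -0.015 for clusters with 1 symbol. The median range over the 5 arrays was 0.43 for unnamed clusters and 0.45 for clusters with 1 symbol. A range over 2 was found for 448 unnamed clusters (2.68%), against 442 clusters with 1 symbol (2.72%). By these measures of spread the unnamed clusters that passed the filter lay close to the named ones.

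The called clusters came from 16 chromosomes, with 11 on chromosome 1, 7 on chromosome 3, 6 each on chromosomes 4 and 6, and 5 each on chromosomes 8 and 21. On chromosome 1 this was 0.646% of the 1702 unnamed clusters tested, beside 0.351% of all clusters tested. The share was larger on chromosomes 21 (1.87%), 18 (1.47%, 3 clusters), 4 (1.01%), 3 (0.976%) and 8 (0.817%), and smaller on the others. None lay on chromosomes 2, 10, 14, 16, 17, 20, X or Y, and chromosome 2 had 1181 unnamed clusters tested. Clusters with 1 symbol were called on some of these, 3 on chromosome 2 and 4 on chromosome 10. The counts are small, and differences between chromosomes were not tested. The stretch of IDs without named clusters held 42 of the 61, which was 0.48% of its 8759 clusters tested, with 23 higher and 19 lower. The runs in gene order held the other 19, which was 0.25% of 7605 tested, with 5 higher and 14 lower. Of the 28 called higher, 12 had a mean under the filter level in the vector clones. Of the 33 called lower, 16 had a mean under that level in the DDB2 clones. For these clusters the filter was passed through the group with the higher signal.

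The largest rise was that of TC12002266 on chromosome 12. Its log2 signal was 9.72, 9.84 and 9.63 in the DDB2 clones, against 7.77 and 2.69 in the vector clones. The DDB2 clones agreed closely, and the vector clones were farther from each other than vector clone 1 was from the DDB2 clones. The log2 fold change was 4.50 with a standard error of 1.51 and a 95% interval of 0.55 to 8.45. It was 1.96 without vector clone 3 and 7.04 without vector clone 1, and the call was lost when any 1 of the DDB2 clones was left out. TC05002512 on chromosome 5 had signals of 10.85, 10.30 and 9.68 in the DDB2 clones, against 8.24 and 5.30 in the vector clones, and a log2 fold change of 3.51 ± 0.946 (SE), or 2.04 without vector clone 3. Of the 10 largest rises it had the highest signal in the DDB2 clones. TC05002515, 3 IDs further on, was also called higher (log2 fold change 1.02 ± 0.338, SE). Its signals were 7.43, 7.79 and 8.52 in the DDB2 clones, against 6.89 and 6.89 in the vector clones.

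TC03003038 on chromosome 3 had signals of 7.33, 8.11 and 6.24 in the DDB2 clones, against 5.99 and 3.34 in the vector clones (log2 fold change 2.56 ± 0.969, SE). DDB2 clone 3 and vector clone 1 were only a little apart here, and the interval of the fold change reached down to 0.02. Without vector clone 3 it was 1.23 and the call was lost, as it was without DDB2 clone 1 or 2. TC13001560 on chromosome 13 had 4.89, 5.74 and 7.19 in the DDB2 clones, against 4.18 and 3.28 in the vector clones (log2 fold change 2.21 ± 0.747, SE). This was the rise among the 10 in which the DDB2 clones themselves were most spread out, and its call was lost without DDB2 clone 2 or without either vector clone. The cluster with the next ID, TC13001561, had 9.18, 9.96 and 10.02 in the DDB2 clones, against 8.26 and 2.57 in the vector clones. Its log2 fold change of 4.31 ± 1.72 (SE) was among the largest of the unnamed clusters, but it was not called, since its unadjusted limma P was 0.0567.

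Other called clusters also stood next to each other or a few steps apart in the ID order. On chromosome 21, TC21000589 had signals of 6.62, 6.67 and 6.69 in the DDB2 clones, against 5.90 and 3.52 in the vector clones. TC21000590 had 5.42, 5.11 and 5.19 in the DDB2 clones, against 4.21 and 2.57 in the vector clones. Both had closely grouped DDB2 clones and a low vector clone 3, with log2 fold changes of 1.95 ± 0.712 and 1.85 ± 0.504 (SE). Without vector clone 3 these were 0.76 and 1.03, and the call of TC21000589 was lost there and without any 1 of the DDB2 clones. A few IDs further on, TC21000594 was called in the other direction, at 5.70, 5.99 and 6.35 in the DDB2 clones against 7.34 and 7.16 in the vector clones (log2 fold change -1.24 ± 0.218, SE). On chromosome 1, TC01004560 had 5.14, 5.38 and 6.22 in the DDB2 clones, against 4.39 and 3.41 in the vector clones (log2 fold change 1.68 ± 0.452, SE). TC01004561 had 8.57, 8.23 and 8.67 in the DDB2 clones, against 7.71 and 5.25 in the vector clones (log2 fold change 2.01 ± 0.748, SE). In both vector clone 3 was the lowest, and without it the log2 fold changes were 1.19 and 0.78 and both calls were lost. TC09001872 and TC09001874 on chromosome 9 had log2 fold changes of 1.16 and 1.19, and TC18000985 and TC18000987 on chromosome 18 had 1.03 each. The IDs in each of these pairs were 2 steps apart, with no called cluster between them. TC03002222 and TC03002223 on chromosome 3 were called lower, at -1.04 and -1.08. Whether neighbouring IDs in this stretch belong to the same transcript was not tested, since the clusters could not be placed.

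**Figure D3:**
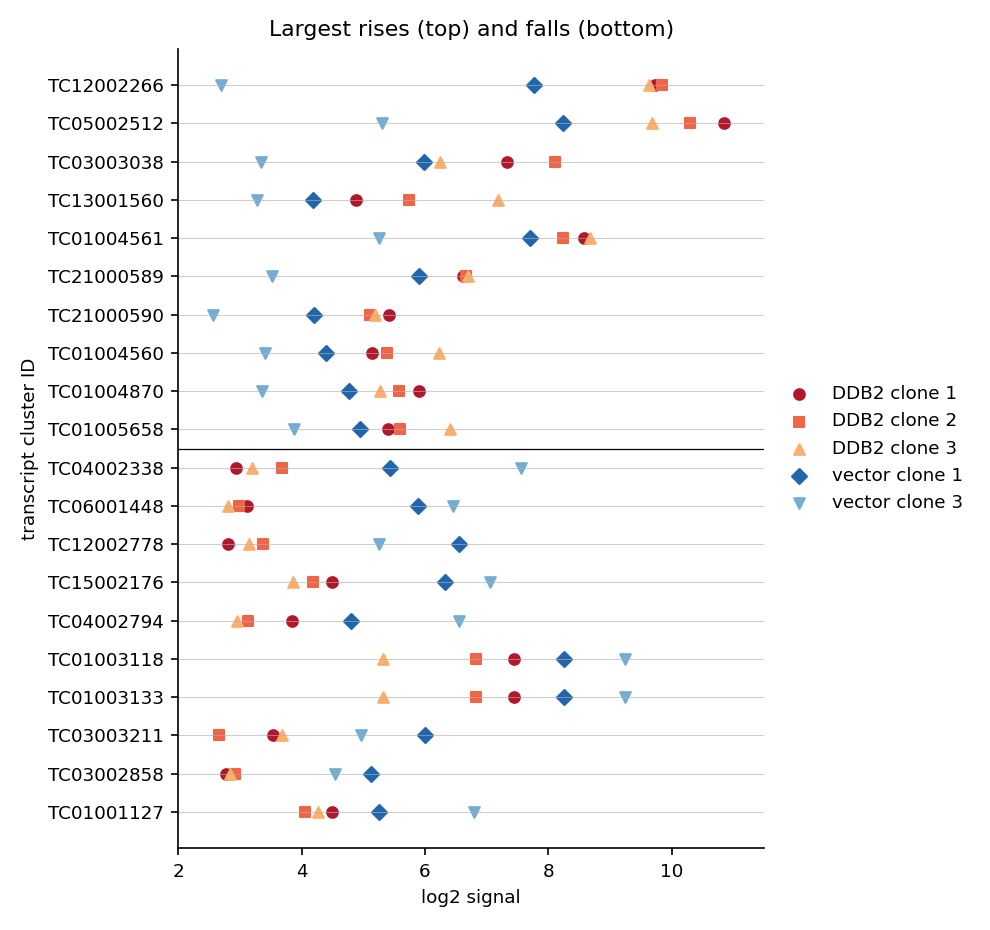
Log2 signal (horizontal axis) of the 10 unnamed clusters with the largest rises and the 10 with the largest falls in DDB2 clones (vertical axis, cluster IDs), with a symbol for each clone. All 3 DDB2 clones lie beyond both vector clones in each, and TC01003118 and TC01003133 have identical values.

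The largest fall was that of TC04002338 on chromosome 4, with signals of 2.94, 3.69 and 3.19 in the DDB2 clones, against 5.43 and 7.56 in the vector clones (log2 fold change -3.22 ± 0.677, SE). All of its DDB2 values were under the filter level, in the range where most unnamed clusters of the array lay. TC06001448 on chromosome 6 had the smallest P of all unnamed clusters. Its signals were 3.11, 2.98 and 2.81 in the DDB2 clones, against 5.89 and 6.46 in the vector clones, and its log2 fold change was -3.21 ± 0.208 (SE, limma unadjusted P 3.19e-05, adjusted p 0.703). Both groups were tight, and the gap between them was larger than the spread within either. In ID order it lay on the minus strand between SCAND3, a gene derived from a transposable element, and the noncoding RNA gene LINC00533. SCAND3 had a log2 fold change of 0.14 ± 0.226 (SE), and LINC00533 did not pass the filter.

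TC12002778 on chromosome 12 had signals of 2.81, 3.37 and 3.15 in the DDB2 clones, against 6.55 and 5.25 in the vector clones (log2 fold change -2.79 ± 0.429, SE). It differed from most of the falls in that vector clone 1 was the higher of the vector clones. TC15002176 on chromosome 15 had 4.50, 4.18 and 3.86 in the DDB2 clones, against 6.32 and 7.06 in the vector clones (log2 fold change -2.51 ± 0.302, SE). TC04002794 had 3.85, 3.14 and 2.96 in the DDB2 clones, against 4.81 and 6.56 in the vector clones. TC03003211 had 3.53, 2.67 and 3.69 in the DDB2 clones, against 6.00 and 4.96 in the vector clones, and here too vector clone 1 was the higher. TC03002858 had 2.77, 2.92 and 2.84 in the DDB2 clones, against 5.12 and 4.55 in the vector clones (log2 fold change -1.99 ± 0.192, SE, limma unadjusted P 0.000202). Its DDB2 values lay within the dimmest part of the array, so the difference is one between a weak signal and a dimmer one.

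Among the brighter falls, TC01003118 and TC01003133 on chromosome 1 had identical signals of 7.45, 6.82 and 5.32 in the DDB2 clones, against 8.26 and 9.24 in the vector clones (log2 fold change -2.22 ± 0.715, SE). Their call was lost without DDB2 clone 2 or vector clone 3. They are 1 measurement listed at 2 IDs, each a few IDs from the pseudogene PDZK1P1, and the 61 called clusters thus gave 60 different profiles. TC19002491 on chromosome 19 had 5.36, 5.07 and 5.00 in the DDB2 clones, against 6.64 and 7.01 in the vector clones (log2 fold change -1.68 ± 0.179, SE, limma unadjusted P 0.00031). All its values were above the filter level, and both of its groups were tight. TC17002028 on chromosome 17 had an unadjusted limma P of 0.000423 but a log2 fold change of only -0.74 ± 0.0843 (SE), and so was not called. Its signals were 4.36, 4.37 and 4.42 in the DDB2 clones, against 5.11 and 5.14 in the vector clones, with the filter level between them.

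Vector clone 3 stood at the far end of most called differences. It was the lowest of the 5 clones in 24 of the 28 clusters called higher and the highest in 24 of the 33 called lower. Against vector clone 1 alone, the mean of the DDB2 clones was higher by a median of 0.96 on the log2 scale in the clusters called higher, and against vector clone 3 alone by 1.49. In the clusters called lower the medians were -1.13 against vector clone 1 and -1.71 against vector clone 3. The gap was over 1 from both vector clones in 13 of the 28 called higher and in 21 of the 33 called lower. When limma was run without vector clone 3, 19 unnamed clusters were called higher, of which 6 were among the 28, and 17 were called lower, of which 6 were among the 33. Without vector clone 1, 164 were called higher and 67 lower, and without DDB2 clone 1, 146 were called higher and 73 lower. Of the 33 called lower, 10 no longer passed the filter without vector clone 1 and 10 without vector clone 3. Calls of these fits were counted for unnamed clusters only, so no background share stands beside them. In these fits the direction of a called cluster could not change, since its groups did not overlap. With a vector clone left out, the spread was estimated from the DDB2 clones alone, and the remaining vector clone was assumed to vary as they do.

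**Figure D4:**
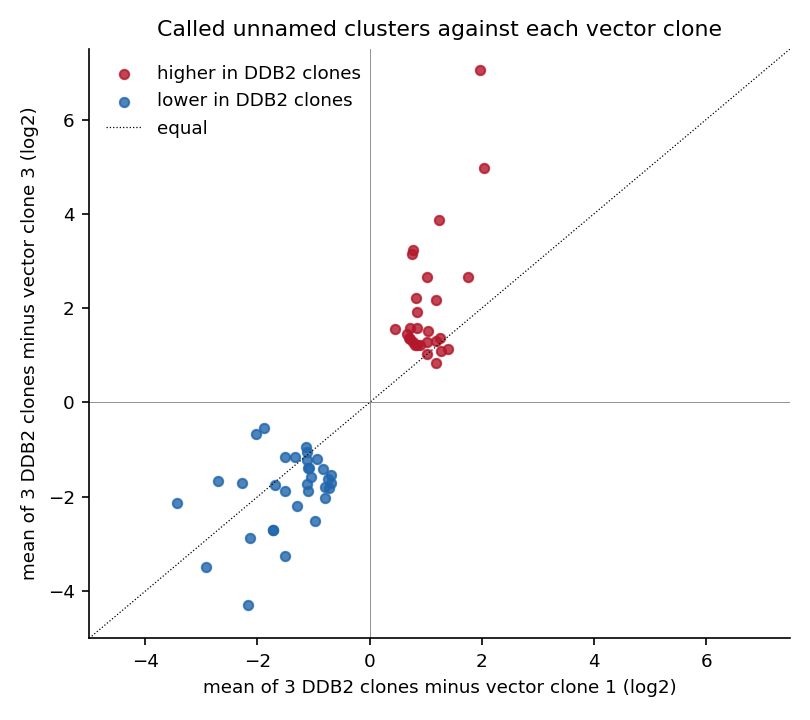
For the 61 called unnamed clusters, the mean of the 3 DDB2 clones minus vector clone 1 (horizontal axis, log2) and minus vector clone 3 (vertical axis, log2), with equal gaps on the dotted line. In 24 of the 28 clusters called higher and 24 of the 33 called lower the gap from vector clone 3 is the larger in size.

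Called in each of the 5 fits with a clone left out, including those with a lone vector clone, were 8 clusters. Higher in DDB2 clones were TC03000945, TC05002512, TC09001872 and TC21000590. Lower were TC04002890, TC15002176, TC19002491 and TC21000594. The same count was not made over all clusters, so no background share stands beside it. Clusters not kept in a fit could not be called in it. TC09001872 had signals of 6.34, 6.92 and 6.89 in the DDB2 clones, against 5.68 and 5.42 in the vector clones, and TC04002890 had 5.79, 5.36 and 5.31 in the DDB2 clones, against 6.79 and 7.68 in the vector clones. The groups did not overlap in any of the 61 called clusters. In TC09001872 and TC04002890 the vector clones were nearer to each other than in TC12002266 or TC05002512. TC06001448 is missing from this list because, with either vector clone left out, it was over the level on only 1 array and was not tested.

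For the 19 called clusters that could be placed, 26 neighbouring named clusters passed the filter, and 17 of these had the same sign of log2 fold change as the unnamed cluster. Over all unnamed clusters in the runs the share with the same sign was 55.6% of 11055 pairs, with a Pearson correlation of 0.19 and a Spearman correlation of 0.15 over pairs that share the same 5 arrays. Of the 26 neighbours, 1 was itself called, beside 0.289% of neighbours over all those pairs. TC01000887 on chromosome 1, at 5.01, 5.29 and 6.02 in the DDB2 clones against 4.39 and 3.92 in the vector clones (log2 fold change 1.28 ± 0.349, SE), lay just before SNX7, a sorting nexin of endosomal trafficking. SNX7 had a log2 fold change of 1.72.

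In some other cases the named neighbour had a log2 fold change of the same sign and was not called. TC03000945 on chromosome 3 had signals of 4.70, 4.99 and 5.42 in the DDB2 clones, against 3.65 and 3.90 in the vector clones (log2 fold change 1.26 ± 0.244, SE), and lay next to the noncoding RNA gene LINC00578, whose log2 fold change was 0.90. TC08001550 on chromosome 8 had 7.37, 7.33 and 7.27 in the DDB2 clones, against 6.52 and 6.11 in the vector clones (log2 fold change 1.01 ± 0.150, SE), and followed EXT1, which encodes a heparan sulfate polymerase, at 0.86. The DDB2 clones of TC08001550 lay close together, well clear of both vector clones. TC09000147 on chromosome 9 had a log2 fold change of 1.05 ± 0.28 (SE). It lay between ANKRD18B, 4 clusters away, at 1.00 ± 0.447 and the T cell receptor orphon TRBV20OR9-2 at 0.93 ± 0.546 (SE). Orphons are copies of receptor segments outside the receptor loci. The estimates of all 3 clusters were alike in size, with wide errors for the named ones.

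Elsewhere the neighbours had the other sign, or the same sign with a much smaller difference. TC08000680, which lay before UTP23, a factor in ribosomal RNA processing, had a log2 fold change of -1.18 and UTP23 one of 0.63. TC06001308 had 1.31, against 0.07 for DEK, a chromatin protein, on one side and -0.52 for MBOAT1, an acyltransferase of membrane lipids, on the other. TC22000381 had -1.30, against -0.18 for FAM118A and -0.25 for RIBC2. TC11000741 and TC11001998 on chromosome 11 lay on opposite strands, each between copies of the FAM86 and UNC93B families, with log2 fold changes of -1.11 and -1.12, while the named neighbours lay between -0.23 and -0.03. Whether copies of these families share signal was not tested.

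Unnamed clusters were also looked up beside genes taken from the study and from earlier results of these data. For 16 such genes with a cluster that they alone name, the nearest kept unnamed cluster on each side in ID order gave 32 listings of 30 different clusters, of which 0 were called, beside 0.351% of all clusters tested in either direction, so that no call among so few is near the background. These lay from 1 to 62 clusters away from the gene, and in many listings other named genes lay between. Their log2 fold changes lay between -0.26 and 0.36 with a median of 0.05, and 14 of 32 had the sign of the gene. NEDD4L, the ubiquitin ligase that acts on TGF-β receptors and Smads, had signals of 4.09, 4.16 and 3.99 in the DDB2 clones, against 5.37 and 6.03 in the vector clones. Of its neighbours, TC18000198 had 6.82, 7.09 and 6.21 in the DDB2 clones, against 6.39 and 6.38 in the vector clones, and TC18000206 had 6.04, 6.10 and 5.82 in the DDB2 clones, against 6.04 and 5.92 in the vector clones. Both sets of values overlapped between the groups. Each of these clusters lay 4 clusters from NEDD4L, with other named clusters between.

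For PLK2, a stress-induced kinase with a log2 fold change of 2.51, the cluster next in ID order, TC05001386, had a log2 fold change of 0.05 ± 0.114 (SE). For PCDH9, a protocadherin of cell adhesion at 2.68, TC13000716 had 0.04 ± 0.0874 (SE). For ALDH1A1, the retinaldehyde dehydrogenase used as a marker of stem-like cancer cells, TC09001206 and TC09001214 had -0.06 and -0.07, against -4.28 for the gene. They lay 5 and 3 clusters away from it. The unnamed clusters named here for PLK2, PCDH9 and ALDH1A1 differed by less than 0.1 on the log2 scale, and the genes by more than 2. KIAA0825 was the case in which an adjacent unnamed cluster came closest to a call. TC05001603 had 5.61, 5.61 and 5.81 in the DDB2 clones, against 5.44 and 5.18 in the vector clones, and differed by 0.36 ± 0.132 (SE) on the log2 scale, beside 2.41 for the gene. Around DDB2 itself, TC11000392 and TC11000412 had log2 fold changes of 0.09 and -0.22. They lay 12 and 7 clusters away, beyond other named genes.

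On chromosome 18, where named clusters had a median log2 fold change of 0.13, the median of the unnamed clusters was 0.04. Of the unnamed clusters that could be placed, 49 lay between PIK3C3 and ZCCHC2 on that chromosome, and 14 of them passed the filter. The median log2 fold change of the 14 was 0.05, against 0.04 for the other 190 kept on the chromosome. Those 190 include clusters of the stretch without names, which may lie in the same region. The medians thus do not compare the region with the rest of the chromosome. All 3 called unnamed clusters of the chromosome, each called higher, were among these unplaced ones. None of the 14 was called, 9 were above 0, and their median was 0.00 without vector clone 3.

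All 22 clusters of the mitochondrial genome were unnamed and all passed the filter. The mitochondrial genome is transcribed from both strands into long RNAs that are cut into ribosomal, transfer and messenger RNAs. The mean signals of these clusters went from 8.36 to 13.68 with a median of 12.98, and 13 of the 50 brightest unnamed clusters were mitochondrial. None was called, and their log2 fold changes lay between -0.60 and 0.14. TC0M000020 had 13.52, 13.55 and 13.50 in the DDB2 clones, against 13.53 and 13.52 in the vector clones, near the top of the scale. TC0M000019 had the widest range of the 22, at 7.47, 8.13 and 8.77 in the DDB2 clones against 7.53 and 9.91 in the vector clones. Its low values were those of the clones numbered 1 in each group and its high values those of the clones numbered 3.

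The same order held for most of these clusters. In 17 of the 22, both clones titled 3 were above the other 3 clones, beside 13.9% of all unnamed clusters tested. These clusters come from the same small genome and are not independent of each other. TC0M000011 showed it at 9.21, 10.08 and 10.81 in the DDB2 clones, against 9.17 and 11.13 in the vector clones, and TC0M000026 at 9.55, 10.42 and 11.18 in the DDB2 clones, against 9.66 and 11.49 in the vector clones. The labels do not say whether clones of the same number were handled together, and the part of handling in these values was not tested. TC0M000002 was among the clusters without this order, with 11.69, 13.49 and 13.24 in the DDB2 clones, against 13.08 and 12.90 in the vector clones. Its values were low in DDB2 clone 1 and were identical on all arrays to those of TC11001412, a cluster with an ID of chromosome 11.

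Some unnamed clusters set a single clone apart from the others. The gap from a clone to all others was over 1 on the log2 scale most often for DDB2 clone 1, which was the highest in 76 unnamed clusters and the lowest in 75. Vector clone 3 was the highest in 23 and the lowest in 84. DDB2 clone 3 was the highest in 23 and the lowest in 29, DDB2 clone 2 in 15 and 1, and vector clone 1 in 9 and 7. Among clusters with 1 symbol, DDB2 clone 1 was the highest in 70 and the lowest in 94, and vector clone 3 in 37 and 72. The cluster in which DDB2 clone 2 was the lowest was TC09002195, at 6.39, 3.72 and 4.73 in the DDB2 clones against 4.92 and 6.11 in the vector clones.

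The unnamed cluster with the widest range was TC11003312 on chromosome 11. Its signals were 4.05, 12.93 and 12.28 in the DDB2 clones, against 9.28 and 7.10 in the vector clones, a range of 8.87. The clusters with the IDs on either side shared this pattern. TC11003311 had 5.13, 13.02 and 12.39 in the DDB2 clones, against 9.30 and 7.10 in the vector clones. TC11003313 had 4.38, 12.31 and 11.57 in the DDB2 clones, against 11.06 and 7.75 in the vector clones. In all 3 clusters DDB2 clone 1 was far below the other DDB2 clones and the vector clones lay between them, so that the groups overlapped and the log2 fold changes, 1.56, 1.98 and 0.02, had standard errors of 3.01, 2.69 and 2.78.

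Of the 40 unnamed clusters with the widest ranges, from 4.61 to 8.87, 4 were called, beside 0.351% of all clusters tested. A choice by range is not independent of a fold change, so these shares cannot be compared. In 19 of them DDB2 clone 1 was over 3 below both other DDB2 clones, and in 14 it was over 3 above both. DDB2 clones 2 and 3 were within 2 of each other in all 40. Vector clone 1 was above vector clone 3 in 36 of the 40. These 40 were chosen by range, and the clusters named next were picked from them after their values were seen. TC02003747, TC02003748 and TC02003749 on chromosome 2 were low in DDB2 clone 1 and in vector clone 3. TC02003749, for example, had 3.54, 9.71 and 9.72 in the DDB2 clones, against 7.75 and 3.00 in the vector clones. TC0X002024, TC0X002025 and TC0X002026 on chromosome X had their highest signal in DDB2 clone 1. TC0X002025 had 10.34, 4.71 and 3.68 in the DDB2 clones, against 8.31 and 3.25 in the vector clones. In each of these groups neighbouring IDs had the same clone at the extreme.

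**Figure D5:**
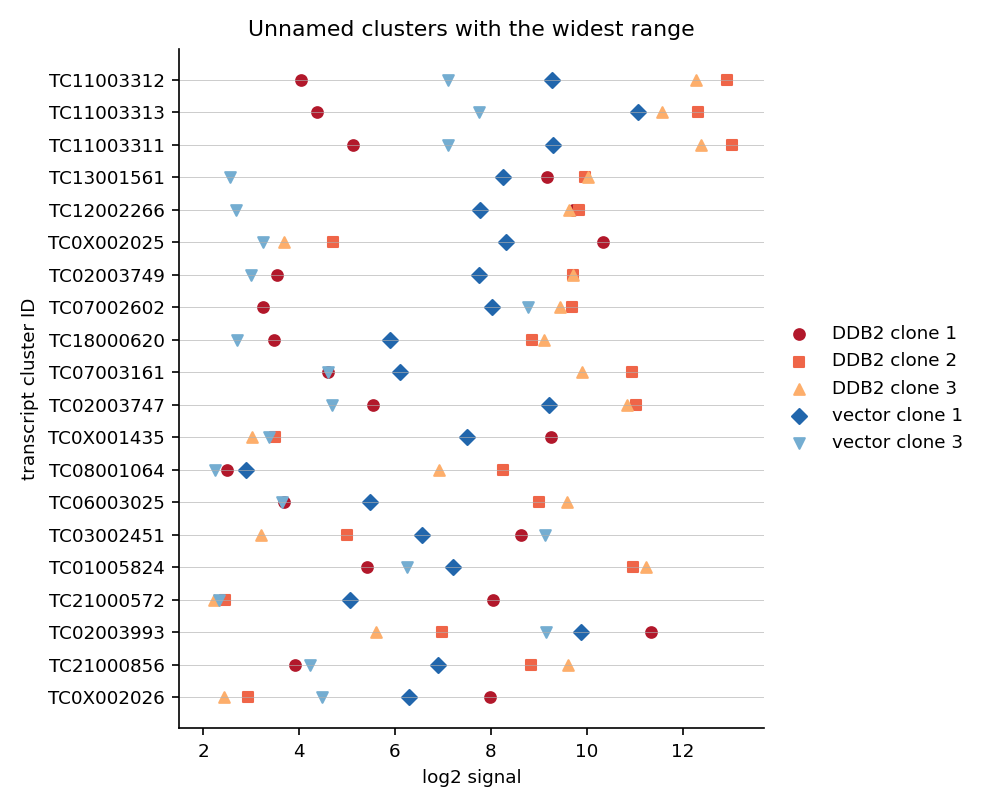
Log2 signal (horizontal axis) of the 20 unnamed clusters with the widest range over the 5 arrays (vertical axis, cluster IDs, widest at the top), with a symbol for each clone. DDB2 clones 2 and 3 lie close together in most, DDB2 clone 1 is often at the other end, and vector clone 1 is mostly to the right of vector clone 3.

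Only 9 of these 40 could be placed beside named genes, and 31 lay in the stretch of IDs without names. TC08001064 on chromosome 8 had 2.49, 8.26 and 6.92 in the DDB2 clones, against 2.90 and 2.26 in the vector clones. It was near the dim end of the array in DDB2 clone 1 and in both vector clones, and lay in the second run near STC1, which encodes the secreted glycoprotein hormone stanniocalcin. STC1 had a log2 fold change of 2.81 ± 2.34 (SE) and was not called. TC07000643 on chromosome 7 had 5.27, 10.10 and 8.69 in the DDB2 clones, against 7.34 and 7.15 in the vector clones, between TRIM56, a ubiquitin ligase of innate immunity, at 0.12 and AP1S1, an adaptor subunit of clathrin-coated vesicles, at 0.41. TC0X001435 had 9.26, 3.51 and 3.02 in the DDB2 clones, against 7.51 and 3.38 in the vector clones, after SOX3, a transcription factor of early neural development that did not pass the filter. TC07000643 itself had a log2 fold change of 0.78 ± 1.48 (SE). The spread of its named neighbours over the clones is not given here.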

How the data were processed

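RNA of each clone was hybridised to 1 Affymetrix Human Transcriptome Array 2.0. The authors summarised probes by RMA with background correction and normalization, and the deposited log2 values (1.01 to 14.1 over 70523 rows) were used as given. The log2 scale was read from the values, since no header states it. Gene names came from a probe-to-gene table of 25324 clusters, and a cluster not listed there was taken as unnamed. RefSeq (GRCh38.p14) gave gene order and strand only.

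Clusters were kept when over the median of the whole table on 2 or more arrays, after the noise filter of the methods, and DDB2 clones were compared with vector clones by limma 3.58.1 in R 4.3.3 (lmFit, eBayes, no covariate), with Benjamini-Hochberg adjustment over all clusters kept. The fit was tested on simulated data. Tables were made with Python 3.11.15 and pandas 2.3.3. Named clusters were the 10 largest rises and 10 largest falls among those called without overlap of the groups, the 10 brightest, the 5 with the smallest P, the 5 with the widest range and the nearest kept unnamed clusters beside genes of the study and of earlier results. Other clusters are named where a small count or a neighbouring ID asked for it. The members and lists were chosen with earlier results of these data known. Precision is limited by there being only 5 arrays.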

Additional observations from a re-analysis of the deposited data

How the results depend on the processing

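The count of unnamed clusters called in DDB2 clones, 28 higher and 33 lower, depended on the fit. Without the shrinkage of variances 6 were called higher and 17 lower. With clusters tested only above the 75th percentile of all values, 14 were called lower. Leaving out each clone in turn gave 19 to 164 called higher and 17 to 73 called lower, with the highest counts of 164 higher without vector clone 1 and 73 lower without DDB2 clone 1. A fold change over 1.5 gave 92 higher and 83 lower, a P under 0.01 gave 6 and 12, and an adjusted p under 0.05 gave 0 and 0. The causes of these changes were not tested. Testing all clusters, a filter at the 25th percentile, robust fitting with an intensity trend, centring, quantile normalization and, chosen after seeing the data, counting identical values once left both counts within 1.5 times. With the replicate block by titles, 43 were called higher, of which 14 were among the 28, and with the replicate block by source names 69, of which 12 were. The lower calls were 33 and 39 under these blocks. The labels do not say that a number pairs the clones, whose deviations correlated at 0.13 and 0.34 by titles and at 0.13 and -0.25 by source names. The deviations of the 2 vector clones from their mean are equal and opposite, so these correlations are not separate checks. A filter at the 25th percentile kept 29317 unnamed clusters and one at the 75th percentile 6528, against 16739. The difference of medians between unnamed clusters and those with 1 symbol stayed between -1.61 and -1.60 under every alternative run. Of the called clusters, 12 higher and 19 lower were not tested at the 75th percentile. The alternative that counts only members without other identifiers was not run, since the table lists none of them.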
